A study of Mus musculus with 7 samples.

Results

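The Rab family comprised 51 genes of the 14807 that the arrays named by exactly 1 symbol. Its members were chosen by name, as Rab followed by digits and at most 1 letter. By their best known site of action they were placed in 11 exocytic, 18 endosomal and 15 ER and Golgi members, with 7 others. Family and classes were set with earlier results of these data known. Rab proteins are small GTPases that sit on membranes in their GTP-bound form and recruit the tethers, motors and fusion factors that move a vesicle to its target. Exchange factors switch them on, GTPase-activating proteins switch them off, and an escort and recycling machinery attaches their lipid anchors and returns them to the cytosol. In beta cells, Rab3 and Rab27 proteins are known for tethering and docking insulin granules, Rab1, Rab2 and Rab6 proteins for carrying newly made cargo through the Golgi, and Rab5, Rab7, Rab9 and Rab11 proteins for endocytosis, lysosomal delivery and recycling.

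RNA came from mouse pancreatic islets on a mixed 129 x FVBn x C57BL/6 background and was hybridised to Affymetrix arrays. There were 4 samples of control littermates, labelled WT and numbered 1 to 4, and 3 samples of mice whose beta cells lacked FoxO1, FoxO3 and FoxO4, labelled b-FoxO triple KO and numbered 5 to 7. Cohorts were matched for age and sex per the labels, while the sources used here do not state the ages, the promoter driving the deletion, any control genotype beyond WT or the meaning of the mark R+ in the knockout titles. They also do not say whether islets of several animals were pooled, so every p-value covers the spread among these 7 samples and nothing wider. The comparison asks how loss of the FoxO transcription factors in beta cells alters islet gene expression. Values are log2 expression, differences are knockout minus control on that scale, and a difference of 1 corresponds to a 2-fold higher value.

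The deleted genes were a weak check of the labels. Foxo4 was at 7.14, 7.02, 7.03 and 6.83 in controls 1 to 4 and at 6.71, 6.71 and 6.16 in knockouts 5 to 7, which placed every knockout below every control, and its difference was -0.47 (SE 0.16, adjusted p = 0.362) in limma. Foxo3 differed by -0.16 (SE 0.11), with its highest knockout at 8.73 just below its lowest control at 8.74. Foxo1 differed by -0.26 (SE 0.17), or -0.50 without the controls 3 and 4 described next. Neither Foxo3 nor Foxo1 was past the threshold, and islets also hold cells that keep these genes. Controls 3 and 4 stood apart from the other samples on the first principal component of all genes, at 43.23 and 30.30. Controls 1 and 2 were at -8.37 and -7.01, and knockouts 5 and 6 at -28.998 and -25.76. Knockout 7, at -3.40, lay nearer to controls 1 and 2 than to knockouts 5 and 6. Because controls 3 and 4 stood farthest from the rest, the difference of a named gene is also given without them. This is done where it then has the other sign or differs by more than 1.5 times. Markers of beta cells averaged 12.02 to 12.17 over 9 genes in control and 12.02 to 12.26 in knockout samples, those of acinar cells 8.85 to 10.37 and 9.59 to 10.32 over 9 measured of 13, and those of endothelial cells 8.58 to 9.04 and 8.52 to 8.70 over 6. Their part in the Rab values was not tested, and in bulk islets fewer cells of a type and less RNA per cell cannot be told apart.

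Most Rab genes had somewhat higher values in knockout islets, but no member passed the test. Positive differences were found for 42 of the 51 members and negative ones for 9. The family's median was 0.28, within a range of -0.37 for Rab36 to 0.99 for Rab9b. Over all genes the median was 0.077 and 68.4% were positive. For genes at or above the median level the median was 0.16 and 71.8% were positive. The 36 Rab members at that level had a median of 0.38, with 86.1% positive. In limma's test 0 of 51 Rab genes had an adjusted p under 0.05, where 0.00675% of all genes did, and the smallest adjusted p of the family was 0.362. At an unadjusted p under 0.05 there were 7 higher members, 13.7% of the family against 11.6% of all genes, and 0 lower members against 2.14%. The 7 were Rab9b, Rab9 and Rab11a of the endosomal class and Rab33a, Rab19, Rab34 and Rab1b of the ER and Golgi class, and 0 exocytic members were among them. The groups did not overlap for 6 members, all higher in knockout islets, which is 11.8% of the family against 8.99% of all genes, and 0 were lower without overlap against 1.94%. Both shares lay near those of all genes, so the family as a whole did not stand out by its calls. Among genes at or above the median level of all genes, which held 36 of the 51 members, 18.3% were higher at an unadjusted p under 0.05, against 6 of the 36 members or 16.7%. In the same stratum 12.9% of genes and 4 of the 36 members, 11.1%, were higher without overlap.

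**Figure D1:**
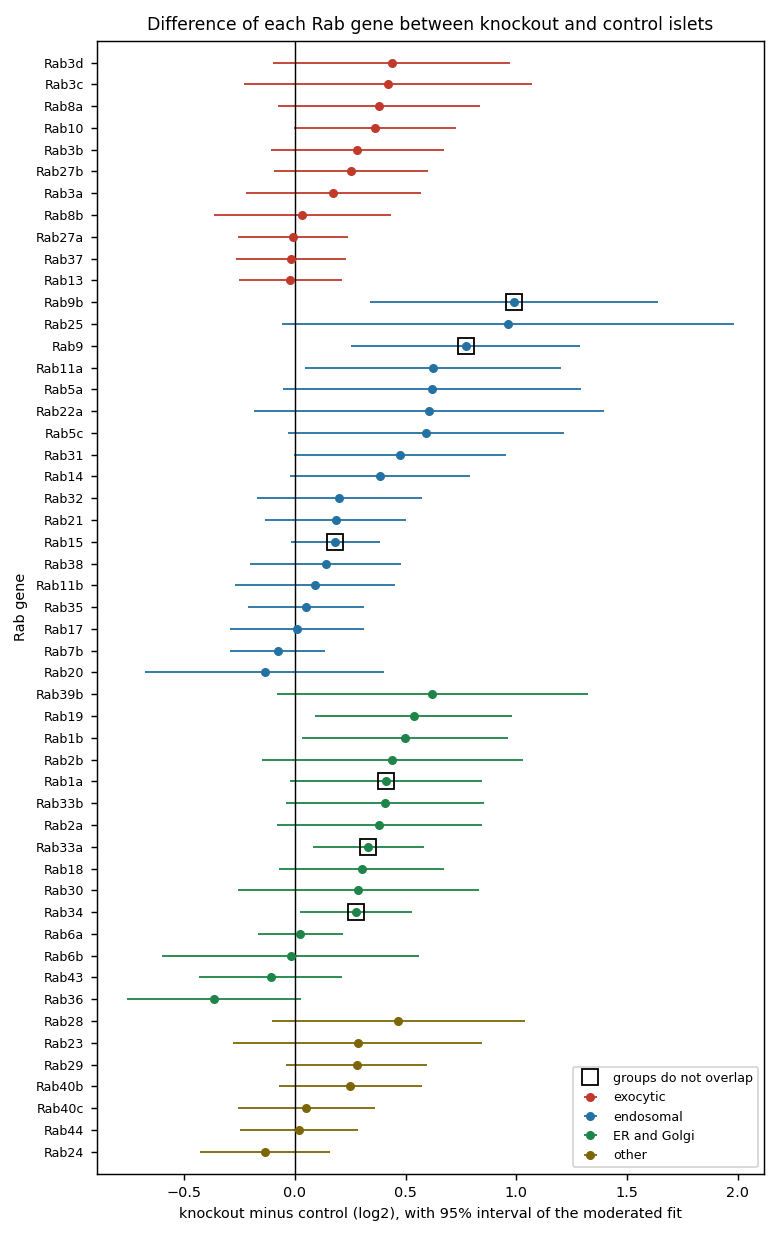
Difference between knockout and control islets (log2, horizontal axis) for each of the 51 Rab genes, with the 95% interval of the moderated fit (n = 4 controls and 3 knockouts), coloured by class. Most points lie to the right of 0, Rab9b is the farthest at 0.99, Rab36 is the lowest at -0.37, and black squares mark the 6 genes whose groups do not overlap.

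The main spread among samples of the family ran within the control group. The mean over the 51 genes was 8.66, 8.62, 8.17 and 8.33 in controls 1 to 4 and 8.79, 8.77 and 8.62 in knockouts 5 to 7. Control 3 was the lowest, control 4 the next lowest, and controls 1 and 2 lay close to knockout 7. For 28 members, 54.9% of the family, controls 3 and 4 both lay below each of the other 5 samples, which held for 30.1% of all genes and for 47.7% of those at or above the median level. By class these were 12 of 18 endosomal, 11 of 15 ER and Golgi, 3 of 11 exocytic and 2 of 7 other members. The opposite, controls 3 and 4 above all others, was seen in Rab20, Rab36 and Rab24. The family's median difference was 0.28 with all samples. Without controls 3 and 4 it was 0.075 with 36 of 51 positive, against 0.029 for all genes with 8663 of 14807 positive. Members then at an unadjusted p under 0.05 were 3 higher, Rab9, Rab9b and Rab33a, where 3.51% of all genes were, and 1 lower, Rab6b, where 1.22% were. Leaving out single samples moved the calls at an unadjusted p under 0.05 in the family and over all genes. In either direction they came to 7 members with all samples, 13.7% of the family and 13.7% of all genes. Without control 1 there were 21 members, 41.2% against 21.1% of all genes, and without control 2 there were 19, 37.3% against 17.5%. Without control 3 there were 4 members, 7.84% against 8.19%, and without control 4 there were 3, 5.88% against 6.92%. Without knockout 5 there were 3 members, 5.88% against 3.84%, without knockout 6 there were 2, 3.92% against 5.75%, and without knockout 7 there were 11, 21.6% against 17.7%. With array weights there were also 11, against 17.4% of all genes. With quantile normalization, which forces the same distribution on every array, 7 members were past that level. Of these 5 were higher, against 8.62% of all genes, and 2 lower, Rab36 and Rab37, against 4.77%. The median difference was then 0.19 with 37 of 51 positive, against 0.045 over all genes with 9000 of 14807 positive.

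**Figure D2:**
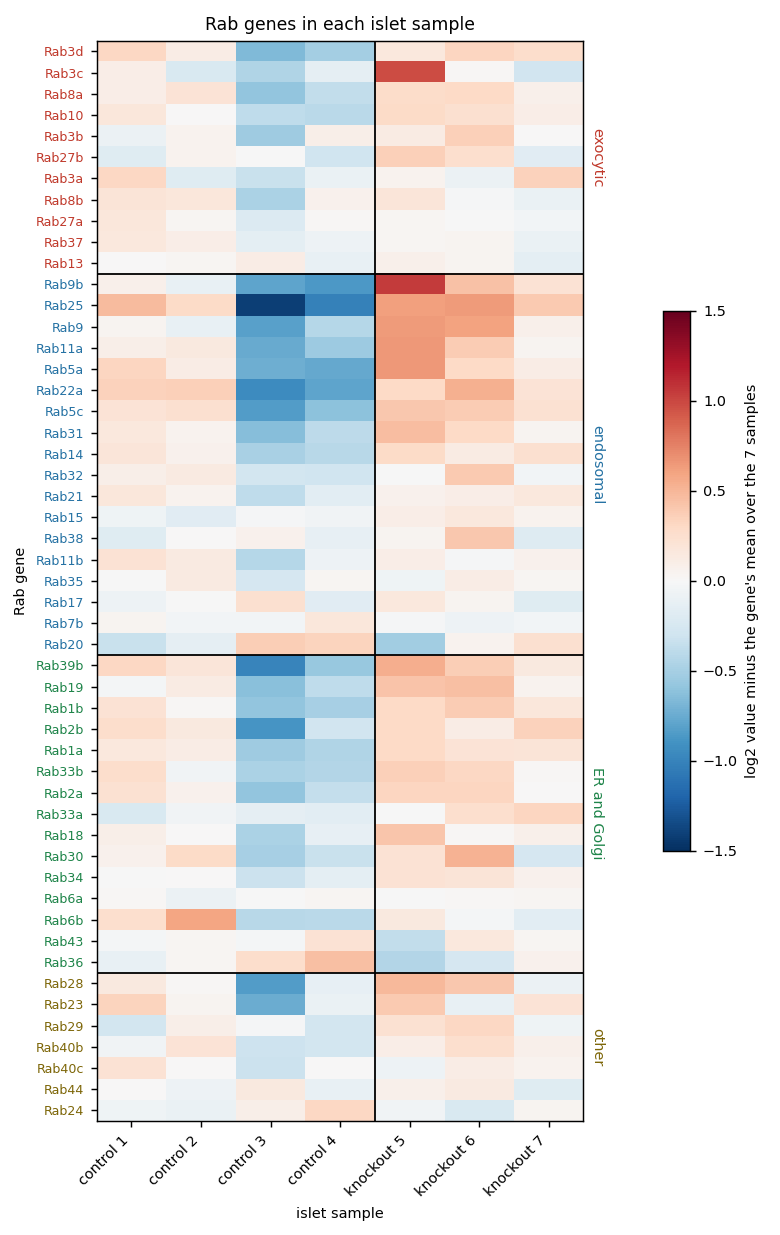
Log2 value of each Rab gene in each of the 7 islet samples, minus that gene's mean over the 7 (colour, blue below and red above), with genes ordered by class and then by difference. The columns of controls 3 and 4 are blue for most endosomal and ER and Golgi genes, while Rab27a, Rab37, Rab13 and Rab6a are nearly white throughout.

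The exocytic members, which act on secretory granules and on vesicles bound for the plasma membrane, had a median difference of 0.25, with 8 of 11 positive. At an unadjusted p under 0.05 there were 0, where 11.6% of all genes were higher and 2.14% lower. Members without overlap were also 0, against 8.99% of all genes higher and 1.94% lower. At such shares a count of 0 among 11 members says little. After quantile normalization the median of the class was 0.10 with 7 positive. Rab27a, the Rab that docks insulin granules through granuphilin, was at 11.45, 11.30, 11.07 and 11.30 in controls 1 to 4 and at 11.31, 11.27 and 11.24 in knockouts 5 to 7. Its groups overlapped and it differed by -0.0089 (SE 0.11, adjusted p = 0.979), with a 95% interval of -0.26 to 0.24. Rab37, which has been placed on secretory granules, was at 10.61, 10.54, 10.30 and 10.37 in controls 1 to 4 and at 10.48, 10.48 and 10.35 in knockouts 5 to 7. All 7 of its values lay within 0.31, and the difference was -0.019 (SE 0.11) with an interval of -0.27 to 0.23. Without controls 3 and 4 Rab27a differed by -0.10 and Rab37 by -0.14. After quantile normalization Rab37 differed by -0.21 and Rab27a by -0.20, neither past the adjusted threshold. Rab27b, a paralog of Rab27a found on granules of many secretory cells, was near the dim end of the scale at 4.28, 4.51, 4.45 and 4.17 in controls 1 to 4 and at 4.82, 4.71 and 4.29 in knockouts 5 to 7. Knockouts 5 and 6 lay above the controls and knockout 7 among them, a difference of 0.25 (SE 0.15).

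The 4 Rab3 genes, whose proteins bind granules and synaptic vesicles ahead of fusion, all had positive differences of 0.17 to 0.44, and each had overlapping groups. Rab3a, the main neuronal and endocrine form, was at 10.41, 9.91, 9.77 and 10.001 in controls 1 to 4 and at 10.15, 10.01 and 10.44 in knockouts 5 to 7. Control 1 and knockout 7 were its highest samples, and the difference was 0.17 (SE 0.17, adjusted p = 0.677), or 0.036 without controls 3 and 4. Rab3b was at 9.84, 9.98, 9.39 and 10.02 in controls 1 to 4 and at 10.05, 10.28 and 9.93 in knockouts 5 to 7, with control 3 alone below the rest, and differed by 0.28 (SE 0.17), or by 0.18 without controls 3 and 4. Rab3c was at 6.15, 5.83, 5.61 and 5.92 in controls 1 to 4 and at 7.04, 6.08 and 5.78 in knockouts 5 to 7. Knockout 5 decided its difference of 0.42 (SE 0.28), since knockouts 6 and 7 lay within the control range, and without knockout 5 it was 0.048. Rab3d, a form that is also abundant on zymogen granules of the exocrine pancreas, was at 10.61, 10.42, 9.65 and 9.80 in controls 1 to 4 and at 10.46, 10.63 and 10.57 in knockouts 5 to 7. Controls 3 and 4 lay below all other samples and controls 1 and 2 close to the knockouts, so its difference was 0.44 (SE 0.23) with all samples and 0.039 (SE 0.12) without controls 3 and 4.

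Rab10 and Rab8a, which carry cargo to the cell surface, had their lowest values in controls 3 and 4, as Rab3d did. Rab10, which serves the delivery of glucose transporter vesicles in fat cells, was at 10.99, 10.82, 10.44 and 10.42 in controls 1 to 4 and at 11.11, 11.06 and 10.92 in knockouts 5 to 7. Its difference of 0.36 (SE 0.16, adjusted p = 0.367) had the smallest p of the class and was 0.12 without controls 3 and 4. Rab8a, which acts in transport to the plasma membrane and the cilium, was at 10.92, 11.02, 10.23 and 10.45 in controls 1 to 4 and at 11.09, 11.11 and 10.90 in knockouts 5 to 7. Again controls 3 and 4 were lowest, and the difference was 0.38 (SE 0.20), or 0.062 without those controls. Its paralog Rab8b differed by 0.034 (SE 0.17), a value that was -0.16 without controls 3 and 4, and Rab13, a Rab of cell junctions, by -0.021 (SE 0.10). Neither had groups that separated.

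**Figure D3:**
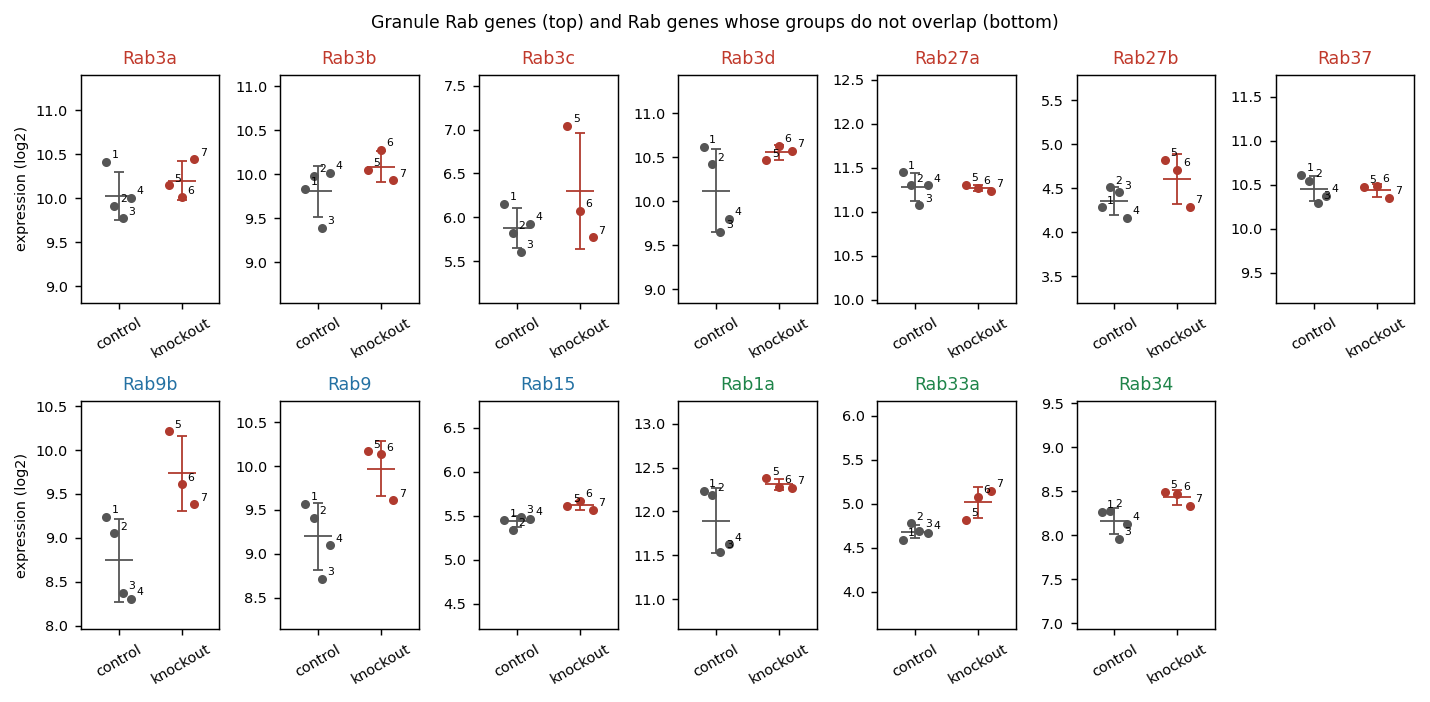
Log2 expression in each sample (points, numbered as the samples), with the mean and SD of 4 control and 3 knockout samples, for the 7 measured Rab3, Rab27 and Rab37 genes in the top row and the 6 Rab genes whose groups do not overlap in the bottom row. Every panel spans the same number of log2 units. Rab27a and Rab37 are nearly flat, and the gap from the highest control to the lowest knockout is 0.14 for Rab9b and 0.035 to 0.077 for Rab1a, Rab33a, Rab9, Rab34 and Rab15.

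The endosomal members had a median difference of 0.29, with 16 of 18 positive. At an unadjusted p under 0.05, 3 were higher, 16.7% against 11.6% of all genes, and 3 had groups that did not overlap, 16.7% against 8.99%. Among genes at or above the median level, where most of the class lay, these shares were 18.3% and 12.9%. Rab9b had the largest difference of the family, ahead of Rab25 and then Rab9, its paralog. Rab9 and Rab9b return mannose 6-phosphate receptors from late endosomes to the Golgi. Rab9b was at 9.24, 9.05, 8.38 and 8.31 in controls 1 to 4 and at 10.21, 9.61 and 9.38 in knockouts 5 to 7. All knockouts lay above all controls, and within the controls samples 3 and 4 were the lowest. Control islets averaged 8.74 ± 0.47 (SD, n = 4) and knockout islets 9.73 ± 0.43 (SD, n = 3). This gave a limma difference of 0.99 (SE 0.28, adjusted p = 0.362), a fold of 1.99, with a 95% interval of 0.34 to 1.64. Rab9 was at 9.57, 9.41, 8.72 and 9.10 in controls 1 to 4 and at 10.17, 10.13 and 9.61 in knockouts 5 to 7. Here too the groups did not overlap, although knockout 7 and control 1 lay close together, and the difference was 0.77 (SE 0.23, adjusted p = 0.362), a fold of 1.71. With controls 3 and 4 left out Rab9b differed by 0.59 (SE 0.23) and Rab9 by 0.48 (SE 0.18), the 2 highest of the family in that setting.

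Both genes lie on the X chromosome, as do Rab33a and Rab39b. To show where their transcription starts, the 100 bases before the RefSeq start are given for both, 5′ to 3′ on the gene's strand of GRCm38.p6, with CpG dinucleotides in capitals. They are not alike, the Rab9b stretch holding 14 CpG and the Rab9 stretch 5.
Rab9b (chrX:136868557-136868656, minus strand): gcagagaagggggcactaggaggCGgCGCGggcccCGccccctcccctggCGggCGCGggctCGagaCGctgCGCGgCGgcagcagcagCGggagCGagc
Rab9 (chrX:166479868-166479967, minus strand): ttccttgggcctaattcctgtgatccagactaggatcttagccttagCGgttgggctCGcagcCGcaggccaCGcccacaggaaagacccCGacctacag

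For Rab11a, Rab25, Rab5a, Rab5c and Rab22a, which act on recycling and early endosomes, the difference was more than 1.5 times smaller without controls 3 and 4. Rab11a, the main Rab of the recycling endosome, was at 9.90, 9.96, 9.06 and 9.27 in controls 1 to 4 and at 10.47, 10.20 and 9.85 in knockouts 5 to 7. Knockout 7 lay below controls 1 and 2, so the groups overlapped, and the difference was 0.62 (SE 0.25, adjusted p = 0.362), or 0.24 without controls 3 and 4. Its paralog Rab11b differed by 0.089 (SE 0.16), or by -0.13 without them. Rab25, an epithelial relative of Rab11, had the widest range of the family, at 10.68, 10.50, 8.80 and 9.20 in controls 1 to 4 and at 10.82, 10.85 and 10.59 in knockouts 5 to 7. Controls 3 and 4 lay more than 1 log2 unit below the other samples, which lay together, and the difference of 0.96 (SE 0.44, adjusted p = 0.372) was 0.16 (SE 0.13) without them. Rab5a and Rab5c, which define the early endosome, differed by 0.62 (SE 0.29) and 0.59 (SE 0.27), or by 0.14 and 0.12 without controls 3 and 4. Rab22a, an early endosome Rab related to Rab5, was at 10.01, 10.03, 8.72 and 8.87 in controls 1 to 4 and at 9.96, 10.20 and 9.87 in knockouts 5 to 7. Its difference of 0.60 (SE 0.34) was -0.0059 without those controls.

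Rab31, of the early endosome and trans-Golgi, was at 8.997, 8.89, 8.19 and 8.45 in controls 1 to 4 and at 9.30, 9.14 and 8.88 in knockouts 5 to 7, with controls 3 and 4 lowest and knockout 7 just below controls 1 and 2. It differed by 0.47 (SE 0.21), or by 0.16 without controls 3 and 4, and Rab14, which acts between Golgi and endosomes, by 0.38 (SE 0.18), or by 0.098 without them. Rab15, a Rab of early and recycling endosomes, was dim but tightly grouped at 5.45, 5.34, 5.49 and 5.46 in controls 1 to 4 and at 5.62, 5.67 and 5.57 in knockouts 5 to 7. Its groups did not overlap although the difference was small, 0.18 (SE 0.088, adjusted p = 0.378), and it was of like size without controls 3 and 4, at 0.22. The remaining endosomal members had differences of -0.14 to 0.20, or -0.046 to 0.17 without controls 3 and 4, and overlapping groups. They were Rab21, which traffics integrins, Rab32 and Rab38 of lysosome-related organelles, Rab35 of fast recycling, the epithelial Rab17, Rab7b of late endosomes, and Rab20 of endosomes and phagosomes. Of these Rab7b and Rab20 had negative differences, of -0.078 (SE 0.093) and -0.14 (SE 0.23), or -0.046 and 0.16 without those controls. Without controls 3 and 4 the median of the 18 endosomal members was 0.13, with 13 positive.

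The ER and Golgi members had a median difference of 0.33, with 12 of 15 positive. At an unadjusted p under 0.05, 4 were higher, 26.7% against 11.6% of all genes, and 3 had groups that did not overlap, 20% against 8.99%. Among genes at or above the median level, where 12 of the 15 members lay, these shares were 18.3% and 12.9%. Rab33a, a Golgi Rab that is found mainly in brain and immune cells, was dim, at 4.59, 4.78, 4.69 and 4.67 in controls 1 to 4 and at 4.82, 5.08 and 5.15 in knockouts 5 to 7. The 3 knockouts lay above the 4 controls, and the difference was 0.33 (SE 0.11, adjusted p = 0.362) with all samples and 0.33 (SE 0.14) without controls 3 and 4. Rab33b, its Golgi paralog that also binds the autophagy factor ATG16L1, was at 9.37, 9.05, 8.63 and 8.66 in controls 1 to 4 and at 9.46, 9.42 and 9.12 in knockouts 5 to 7. Its groups overlapped, and the difference of 0.41 (SE 0.19) was 0.12 without those controls. Rab34, which positions lysosomes and serves cilium formation, was at 8.27, 8.28, 7.96 and 8.13 in controls 1 to 4 and at 8.50, 8.47 and 8.34 in knockouts 5 to 7. Its groups did not overlap, with a difference of 0.27 (SE 0.11, adjusted p = 0.362), or 0.16 without controls 3 and 4.

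Rab1a and Rab1b, the pair that starts transport from the ER to the Golgi, had like differences. Rab1a was at 12.23, 12.19, 11.54 and 11.63 in controls 1 to 4 and at 12.38, 12.28 and 12.27 in knockouts 5 to 7. The groups did not overlap, but controls 1 and 2 lay just under the lowest knockout, and the difference of 0.41 (SE 0.19, adjusted p = 0.370) was 0.098 without controls 3 and 4. Rab1b was at 11.12, 10.93, 10.31 and 10.41 in controls 1 to 4 and at 11.21, 11.29 and 11.07 in knockouts 5 to 7, with overlapping groups and a difference of 0.50 (SE 0.20, adjusted p = 0.362), or 0.17 without those controls. Their coding sequences are close, and how far the probe sets of such paralogs share signal was not tested. Rab2a, of the ER-Golgi intermediate compartment, and its paralog Rab2b differed by 0.38 (SE 0.20) and 0.44 (SE 0.26), or by 0.075 and 0.046 without controls 3 and 4. Rab19 was at 7.59, 7.74, 6.999 and 7.24 in controls 1 to 4 and at 8.05, 8.07 and 7.67 in knockouts 5 to 7. Knockout 7 lay between controls 1 and 2, and the difference was 0.54 (SE 0.19, adjusted p = 0.362), or 0.26 without controls 3 and 4. Rab39b, an X-linked neuronal Rab, was at 10.18, 10.05, 8.88 and 9.30 in controls 1 to 4 and at 10.41, 10.24 and 10.02 in knockouts 5 to 7. Only controls 3 and 4 lay apart from the other samples, and the difference of 0.62 (SE 0.31) was 0.11 without them.

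Rab6a, a Rab of the Golgi that also accompanies carriers leaving it, was the steadiest member, at 11.08, 10.97, 11.06 and 11.08 in controls 1 to 4 and at 11.06, 11.08 and 11.09 in knockouts 5 to 7. Its 7 values lay within 0.11, and the difference of 0.024 (SE 0.084) had an interval of -0.17 to 0.22. After quantile normalization Rab6a differed by -0.18, and without controls 3 and 4 by 0.047. Rab6b, its neuronal paralog, was at 7.05, 7.39, 6.38 and 6.39 in controls 1 to 4 and at 6.95, 6.77 and 6.64 in knockouts 5 to 7. Control 2 was highest and controls 3 and 4 lowest, so the difference of -0.018 (SE 0.25) with all samples was -0.44 (SE 0.15) without controls 3 and 4. Rab36, a Golgi Rab that binds the lysosomal tether RILP, had the most negative difference of the family. It was at 8.89, 9.03, 9.27 and 9.45 in controls 1 to 4 and at 8.56, 8.75 and 9.07 in knockouts 5 to 7. Knockouts 5 and 6 lay below every control, knockout 7 lay above controls 1 and 2, and the difference was -0.37 (SE 0.17, adjusted p = 0.375), or -0.17 without controls 3 and 4. Rab18 of the ER and lipid droplets, Rab30 and Rab43 of the Golgi differed by 0.30 (SE 0.16), 0.29 (SE 0.24) and -0.11 (SE 0.14), or by 0.13, -0.012 and -0.062 without controls 3 and 4, with overlapping groups.

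The 7 other members had a median difference of 0.25. At an unadjusted p under 0.05 there were 0, where 11.6% of all genes were higher and 2.14% lower. Members without overlap were also 0, against 8.99% of all genes higher and 1.94% lower. Rab29, a Rab of the trans-Golgi and lysosome that binds the kinase LRRK2, was at 4.63, 4.99, 4.89 and 4.63 in controls 1 to 4 and at 5.13, 5.22 and 4.85 in knockouts 5 to 7. Knockouts 5 and 6 lay above all controls and knockout 7 among them, a difference of 0.28 (SE 0.14). Rab28, a ciliary Rab, was at 9.12, 8.99, 8.14 and 8.86 in controls 1 to 4 and at 9.47, 9.38 and 8.89 in knockouts 5 to 7, with control 3 alone far below, and differed by 0.47 (SE 0.25), or by 0.19 without controls 3 and 4. Rab23, which restrains Hedgehog signalling, was at 7.98, 7.69, 6.91 and 7.56 in controls 1 to 4 and at 8.05, 7.54 and 7.85 in knockouts 5 to 7, again with control 3 lowest, and differed by 0.28 (SE 0.25), or by -0.020 without controls 3 and 4. Rab40b, whose group serves ubiquitin ligases, was at 7.49, 7.74, 7.23 and 7.26 in controls 1 to 4 and at 7.63, 7.79 and 7.61 in knockouts 5 to 7. Its difference was 0.25 (SE 0.14), or 0.066 without controls 3 and 4. Rab40c and the large Rab44 differed by 0.051 (SE 0.14) and 0.017 (SE 0.12), and Rab24, linked to autophagy, by -0.13 (SE 0.13). Without controls 3 and 4 these 3 differed by -0.085, 0.041 and 0.0048.

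In each class the median was smaller without controls 3 and 4. The median went from 0.25 to 0.039 for the exocytic, from 0.29 to 0.13 for the endosomal and from 0.33 to 0.098 for the ER and Golgi members. Of the 51 members 28 had a difference of the same sign that was more than 1.5 times smaller, 10 had the other sign, 6 had one more than 1.5 times larger and 7 one within 1.5 times. Single samples also moved the class medians, the exocytic one to 0.14 without control 3 and to 0.15 without knockout 5, and the ER and Golgi one to 0.21 without control 3. Differences between the classes were not tested. Per sample, the exocytic mean was 9.10, 9.02, 8.65 and 8.82 in controls 1 to 4 and 9.22, 9.12 and 8.98 in knockouts 5 to 7. The endosomal mean was 8.61, 8.58, 8.06 and 8.17 in controls 1 to 4 and 8.79, 8.78 and 8.60 in knockouts 5 to 7, and the ER and Golgi mean was 8.92, 8.91, 8.40 and 8.59 in controls 1 to 4 and 9.003, 9.02 and 8.90 in knockouts 5 to 7. In all 3 classes control 3 was the lowest sample and control 4 the next, and knockout 7 was the lowest knockout.

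**Figure D4:**
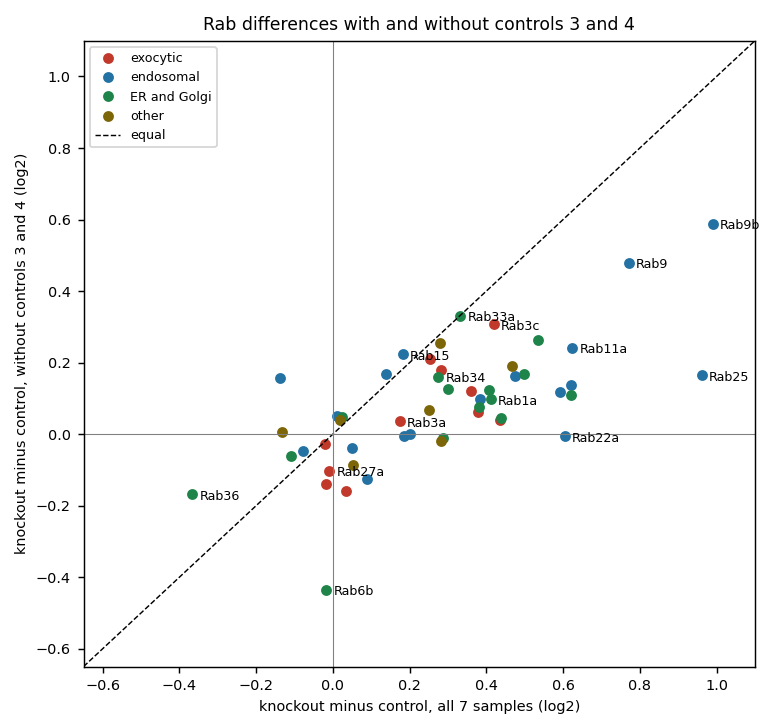
Difference of each Rab gene (points, log2, coloured by class) with all 7 samples on the horizontal axis and without controls 3 and 4 on the vertical axis, where the dashed line marks equal values. Most points to the right of 0 lie below the line, Rab25 goes from 0.96 to 0.16, and Rab9b, Rab9 and Rab33a keep 0.59, 0.48 and 0.33.

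The proteins that serve Rabs were followed in lists of 99 genes, of which 80 were measured. Their median difference was 0.0057, and 41 of 80 were positive, against 0.077 and 68.4% over all genes. At an unadjusted p under 0.05, 5 were higher and 5 lower, which is 6.25% in each direction against 11.6% and 2.14% of all genes, and 0 passed the adjusted threshold in limma. The machinery that attaches and recycles the lipid anchor had the highest median, 0.33 over 5 measured of 6. Chm, which encodes an escort protein that presents new Rabs to geranylgeranyl transferase, was at 8.54, 8.45, 7.75 and 8.32 in controls 1 to 4 and at 9.29, 8.78 and 8.69 in knockouts 5 to 7. All knockouts lay above all controls, and the difference was 0.66 (SE 0.22, adjusted p = 0.362), or 0.43 without controls 3 and 4. Gdi2, which extracts Rabs from membranes, was at 11.34, 11.30, 10.43 and 10.70 in controls 1 to 4 and at 11.73, 11.49 and 11.28 in knockouts 5 to 7. Its groups overlapped, and the difference of 0.56 (SE 0.24) was 0.18 without those controls. Chml, the other escort protein, differed by 0.33 (SE 0.15), or by 0.15 without them.

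Among 22 measured exchange factors the median difference was -0.067, with 8 positive. An unadjusted p under 0.05 was reached by 1 higher and 2 lower members, 4.55% and 9.09% against 11.6% and 2.14% of all genes. Sbf1, a pseudophosphatase with a DENN domain, was at 8.39, 8.50, 8.59 and 8.66 in controls 1 to 4 and at 7.94, 8.28 and 8.15 in knockouts 5 to 7. It was lower in all 3 knockouts than in all 4 controls, with a difference of -0.41 (SE 0.12, adjusted p = 0.362). Dennd1b, an exchange factor for Rab35, differed by 0.55 (SE 0.24), or by 0.18 (SE 0.17, unadjusted p = 0.308) without controls 3 and 4. Dennd4b differed by -0.33 (SE 0.14), or by -0.26 (SE 0.16, unadjusted p = 0.151) without them, so neither was then under 0.05. Madd, the exchange factor of Rab3 and Rab27 proteins, differed by -0.22 (SE 0.16). Among 20 GTPase-activating proteins the median was 0.017. An unadjusted p under 0.05 was reached by 0 of them, where 11.6% of all genes were higher and 2.14% lower. Evi5, Tbc1d16 and Tbc1d15 differed by 0.24 (SE 0.12), -0.17 (SE 0.090) and 0.29 (SE 0.16), the last by 0.11 without controls 3 and 4, and Tbc1d16 had groups that did not overlap.

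Exocytic effectors, which bind active Rab3 or Rab27, had a median of 0.046 over 11 measured of 14. Of these 1 had a higher and 1 a lower value with an unadjusted p under 0.05. That is 9.09% in each direction, against 11.6% and 2.14% of all genes. Sytl4, which encodes granuphilin, the Rab27a partner on insulin granules, was at 11.01, 10.87, 11.16 and 10.97 in controls 1 to 4 and at 11.03, 10.93 and 10.91 in knockouts 5 to 7, and its groups overlapped with a difference of -0.048 (SE 0.10), or 0.012 without controls 3 and 4. Mlph, which encodes melanophilin, the link from Rab27a to myosin Va in pigment cells, was at 8.07, 8.29, 7.98 and 7.69 in controls 1 to 4 and at 7.55, 7.64 and 7.59 in knockouts 5 to 7. All knockouts lay below all controls, and the difference of -0.41 (SE 0.14, adjusted p = 0.362) was -0.58 (SE 0.12) without controls 3 and 4. Exph5, another Rab27 effector, differed by 0.41 (SE 0.16), and Rims1, a Rab3 effector of active zones, by 0.16 (SE 0.11), or by 0.24 and 0.066 without those controls. Of 13 endosomal effectors Wdr44, which binds Rab11, and Rabep1, a Rab5 effector, were higher without overlap, 15.4% against 8.99% of all genes. At an unadjusted p under 0.05, 1 was higher, Wdr44, which is 7.69% against 11.6% of all genes. At that level 2 were lower, Rab11fip3 and Gripap1, which is 15.4% against 2.14%. Wdr44 differed by 0.30 (SE 0.11) and Rabep1 by 0.38 (SE 0.17), or 0.14 without controls 3 and 4. Rab11fip3, a Rab11 effector like Wdr44, differed by -0.45 (SE 0.18). The Rab4 effector Gripap1 differed by -0.36 (SE 0.15) and Ocrl, an inositol phosphatase, by 0.13 (SE 0.12). Without controls 3 and 4 Gripap1 and Ocrl differed by -0.17 and 0.053. Of 9 Golgi effectors 0 had an unadjusted p under 0.05, where 11.6% of all genes were higher and 2.14% lower. Golga2, Golga4, Uso1 and Gorasp2 differed by -0.27 (SE 0.14), -0.26 (SE 0.15), 0.20 (SE 0.13) and 0.29 (SE 0.20). Without controls 3 and 4 these were -0.17, -0.18, 0.044 and -0.039.

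The promoters of the family were searched for GTAAACA on either strand, the core letters of the FoxO binding element, in windows of 250 bases before to 50 after each RefSeq start. Of the 51 genes 42 had such windows, 53 in all, and 2 windows held the letters, 3.77%. The share was 2.92% among windows of the measured genes. It was 3.65% among all 32851 windows, which also cover genes not measured here. A match is a description of the letters and no evidence of binding. The 2 genes were Rab39b and Rab43, whose differences of 0.62 and -0.11 had opposite signs. Their stretches are shown 5′ to 3′ on the gene's strand of GRCm38.p6, with the match in capitals, which begins 246 bases before the start in Rab39b and 136 before it in 1 of 4 windows of Rab43.
Rab39b (chrX:75578451-75578481, minus strand): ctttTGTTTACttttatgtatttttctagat
Rab43 (chr6:87809867-87809913, minus strand): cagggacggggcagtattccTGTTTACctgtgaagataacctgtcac
The 6 members whose groups did not overlap held no match in their windows. Over the 250 bases before the start the median GC content was 60.0% in Rab and 57.6% in all measured genes, with medians of 15 and 12 CpG.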

How the data were processed

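The authors deposited log2 expression values, 1 per probe set and array, and the submitters' processing notes name RMA and Affymetrix Expression Console as the tools. RMA subtracts background, normalizes arrays against each other and summarises probes. It makes no detection calls, so even a probe set near background carries a number. The log2 scale was inferred from the values (2.50 to 14.28). Versions, settings and build of that step are not stated. Of 23238 probe sets 14939 carried 1 symbol in the platform annotation, and the brightest probe set per gene gave 14807 genes. Each Rab gene had 1 probe set, all 51 matched RefSeq by Entrez ID, and 3 probe sets naming a Rab beside another gene were left out.

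The 2 groups were compared with limma 3.58.1 (R 4.3.3), two-sided, without covariates. P-values were adjusted by Benjamini-Hochberg across the 14807 genes, with 0.05 as the threshold. Adjusted p and SE are from this fit, intervals are 95%. The number of arrays limits the precision. Alternatives varied probe set choice, a level filter, normalization, centring, prior, array weights, moderation, features tested and samples. On simulated data with 14807 genes, 200 of them changed, the fit called 24.2% of genes changed by 0.5 and 73.2% of those changed by 1. The simulated noise was independent between genes, unlike the shift that many genes share in controls 3 and 4. These shares may therefore not carry over to the real arrays. Members, classes, lists and the naming rule (granule Rabs, the 4 smallest p per class, members without overlap, the brightest and dimmest member, and from each regulator list the 3 smallest p and the brightest) were chosen with earlier results of these data known. Promoters are from RefSeq GRCm38.p6.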

Additional observations from a re-analysis of the deposited data

How the results depend on the processing

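No Rab gene was past the adjusted threshold under any of the 16 alternatives run, the lowest adjusted p being 0.173, and 32 of 51 members kept the sign of their difference in all of them. With samples left out one at a time, 2 to 21 members had an unadjusted p under 0.05 where the full set gave 7, while 3.84% to 21.1% of all genes did. This count was 11 with array weights, 21.6% against 17.4% of all genes, and 4 without controls 3 and 4, 7.84% against 4.73%. The family's median was 0.075 without controls 3 and 4, the exocytic 0.039 and the ER and Golgi 0.098, and the endosomal median was 0.60 with dim genes filtered out at the median level, which keeps 12 members of that class. The other medians moved by less than the spread between replicates. The cause of these shifts was not tested.

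Reversed signs were limited to members with small differences or values that rested on controls 3 and 4. Without these controls they were -0.13 for Rab11b, 0.16 for Rab20, -0.0050 for Rab21, -0.0059 for Rab22a, -0.020 for Rab23, 0.0048 for Rab24, -0.012 for Rab30, -0.040 for Rab35, -0.085 for Rab40c and -0.16 for Rab8b. Quantile normalization gave -0.0069 for Rab21, -0.10 for Rab35, -0.022 for Rab40c, -0.18 for Rab6a and -0.095 for Rab8b, array weights -0.055 for Rab11b, 0.018 for Rab13, -0.0028 for Rab35, -0.013 for Rab40c and -0.070 for Rab8b, and centring -0.012 for Rab17 and -0.0056 for Rab44. Leaving out single samples gave ranges of -0.041 to 0.18 for Rab11b, -0.063 to 0.050 for Rab13, -0.065 to 0.10 for Rab17, -0.30 to 0.086 for Rab20, -0.078 to 0.046 for Rab27a, -0.027 to 0.10 for Rab35, -0.071 to 0.033 for Rab37, -0.020 to 0.28 for Rab38, -0.047 to 0.13 for Rab40c, -0.22 to 0.043 for Rab43, -0.047 to 0.11 for Rab44, -0.0012 to 0.036 for Rab6a, -0.16 to 0.18 for Rab6b and -0.12 to 0.10 for Rab8b. No paired analysis was possible, because the sources used here do not say which control and knockout samples came from the same litter.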

Other observations

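The 4 X-linked members, Rab9b, Rab9, Rab39b and Rab33a, all had positive differences of 0.33 to 0.99, a grouping chosen after their values were seen and therefore without a test. Without controls 3 and 4 they differed by 0.59, 0.48, 0.11 and 0.33. Rab9, Rab9b and Rab33a were also the 3 Rab genes at an unadjusted p under 0.05 and higher without controls 3 and 4. Of all 473 X-linked genes 20.5% had a higher level with an unadjusted p under 0.05 and 16.7% lay higher without overlap, against 11.6% and 8.99% of all genes. Their median difference was 0.12, or 0.071 without controls 3 and 4, against 0.077 and 0.029 over all genes. Of the 80 measured genes that serve Rabs, 6 were higher without overlap, 7.5% against 8.99% of all genes. Another 4 were lower without overlap, 5% against 1.94% of all genes. Among the higher ones the X-linked Chm and Wdr44 differed by 0.66 and 0.30. The autosomal Rab3ip, Mon1a, Rabep1 and Golga1 differed by 0.27, 0.15, 0.38 and 0.13. Without controls 3 and 4 Chm, Rab3ip, Mon1a and Rabep1 differed by 0.43, 0.14, 0.078 and 0.14. The other X-linked ones, Gripap1, Ocrl, Sytl4 and Tbc1d25, differed by -0.36, 0.13, -0.048 and 0.024. Without controls 3 and 4 these were -0.17, 0.053, 0.012 and -0.14.

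Paralogs are set side by side here without a test. Rab11a and Rab11b had differences of 0.62 and 0.089, Rab8a and Rab8b of 0.38 and 0.034, Rab6a and Rab6b of 0.024 and -0.018, and Rab33a and Rab33b of 0.33 and 0.41.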
